A study of Homo sapiens with 18 samples.

Results

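The LTR10 and MER61 families are endogenous retrovirus remnants whose long terminal repeats (LTRs) are known for carrying binding sites of the tumour suppressor p53. RNA from their single copies was examined in IMR90, a human cell line of lung fibroblasts, wildtype per the labels. Members were the rows of both deposited count tables whose repeat name is LTR10 followed by a letter, or begins with MER61. This gave 16 names: 9 LTR10 LTRs (LTR10A to LTR10G, with LTR10B1 and LTR10B2), 6 MER61 LTRs (MER61A to MER61F) and the internal part of the MER61 provirus (MER61-int). The tables list 3967 such copies among 2404193 repeat copies in the 5-FU time course, and 3102 among 1996647 in the Nutlin experiment, with 3016 copies listed in both. The letters LTR10 also open 14 names (LTR101_Mam to LTR109A2) that carry a further digit and are separate repeat names. Their 1425 and 795 copies were set aside and are given only as a comparison.

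The study compared drug-treated cells with cells given the same volume of the solvent DMSO for the same time. Nutlin, a small molecule that keeps MDM2 from binding p53, was used at 5 µM for 6 h, and 5-fluorouracil (5-FU), an antimetabolite that damages nucleic acids, at 375 µM for 6, 12 or 24 h. Each of these 4 treatments had a DMSO group of its own, and a further group was left untreated, with fresh medium 12 h before extraction, which makes 9 groups of 2 samples. Nothing in the labels says that the samples of a group came from separate cultures, so p-values measure the spread between these samples, which may be technical. A change therefore refers to 1 cell line at 1 dose of each drug.

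An LTR holds the promoter and the signals for RNA ends of a retrovirus, and a provirus is an internal part with an LTR at each end. Recombination between both LTRs leaves a solitary LTR, the commonest form in the genome. LTR10 LTRs belong to the HERVI and HERVIP10 group of proviruses and MER61 LTRs to the MER61 internal part, both of the ERV1 class. p53 is a transcription factor that DNA damage or loss of MDM2 binding stabilises. RNA counted over a repeat copy can start in the copy or in a gene around it, and the row names carry no strand, so sense and antisense RNA could not be told apart. Gene loci named below are general background on where a copy lies, not read from the deposited tables.

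Libraries summed to 9109885 to 11880265 counts for Nutlin and 2412334 to 6290320 counts for the 5-FU time course, where the DMSO 12 h libraries were the shallowest. In the Nutlin table the pair of untreated columns did not differ in any row and was counted as 1 sample. LTR10 and MER61 copies took 0.0725% to 0.119% of the counts that lie outside structural RNA repeats. The highest share was in replicate 2 of the 5-FU 24 h group, against 0.0925% in replicate 1 and 0.089% and 0.0978% in the matching DMSO libraries. The normalization factors (TMM) also differed between drug and DMSO libraries. On the log2 scale, drug less DMSO factors averaged -0.15 for Nutlin. For 5-FU they averaged -0.05, -0.33 and -0.17 at 6, 12 and 24 h. Scaling by library size alone would move log2 fold changes by about these amounts, though not equally for every copy.

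Most copies were silent at this depth. In the 5-FU table, 1440 copies (36.3%) had any count, against 58.4% of all repeat copies, and 89 copies (65 LTRs and 24 MER61-int) had enough counts to be tested. Of the copies in the Nutlin table, 957 (30.9%) had any count, against 44.0% of all copies, and 18 (14 LTRs and 4 MER61-int) were tested. The tested copies held 54.5% and 41.3% of all counts of the members, and the other copies enter only the sums by name. By name, the 89 were 17 LTR10C, 10 LTR10E, 8 LTR10A, 4 LTR10B1, 3 LTR10D, 2 LTR10B2 and 1 each of LTR10B, LTR10F and LTR10G, then 5 MER61A, 4 MER61D, 3 MER61B, 3 MER61C, 2 MER61E, 1 MER61F and the 24 MER61-int. Shares tested are given next by position in a provirus. Of the 240 MER61-int copies with a MER61 LTR within 500 bases in the 5-FU table, 7.08% were tested, against 1.25% of the 562 without. For MER61 LTRs with and without MER61-int beside them the shares were 3.06% and 1.04%, and for LTR10 LTRs with and without a HERVI or HERVIP10 internal part they were 2.43% and 2.52%. These shares are not adjusted for copy length. Over all members of the 5-FU table the median length was 578 bases for tested and 469 bases for untested copies.

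A copy is called changed where its adjusted p was under 0.05, with the adjustment over all repeat copies tested in the table. Under Nutlin, 4 of 18 copies changed, 1 upward and 3 downward, where 9.57% of all copies tested changed (5.36% upward and 4.21% downward). After 6 h of 5-FU none of 89 changed, with a background of 0.101% (0.0896% upward and 0.011% downward), while 6 had an unadjusted p under 0.05. DESeq2, and edgeR with no filter on low counts, each called 1 copy at 6 h, the MER61-int copy on chromosome 5 described next. After 12 h, 7 of 89 copies changed, 4 upward and 3 downward, with a background of 9.71% (5.44% upward and 4.27% downward). With library size alone it was 4 upward and 5 downward. After 24 h, 11 of 89 changed, 5 upward and 6 downward, with a background of 4.23% (2.42% upward and 1.82% downward). The 12 h count was 4 without either DMSO replicate or without 5-FU replicate 1, and the 24 h count was 7 without DMSO replicate 2 or without 5-FU replicate 1.

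The classes did not move as a block. The median log2 fold change of the members tested was 0.08 under Nutlin and 0.01, 0.02 and 0.20 at 6, 12 and 24 h of 5-FU, beside 0.01, 0.00, -0.04 and 0.00 over all copies. The median at 24 h was -0.22 without replicate 2 of the 5-FU 24 h group. At 24 h, 3 of 18 MER61 LTRs rose and 1 fell, 2 of 24 MER61-int copies rose and 2 fell, and none of 47 LTR10 LTRs rose while 3 fell. Medians of these classes were 0.43, 0.32 and -0.14. Under Nutlin, 3 of 10 LTR10 LTRs fell and none rose, while 1 of 4 MER61-int copies rose and none of 4 MER61 LTRs changed (1 had an unadjusted p under 0.05).

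**Figure D1:**
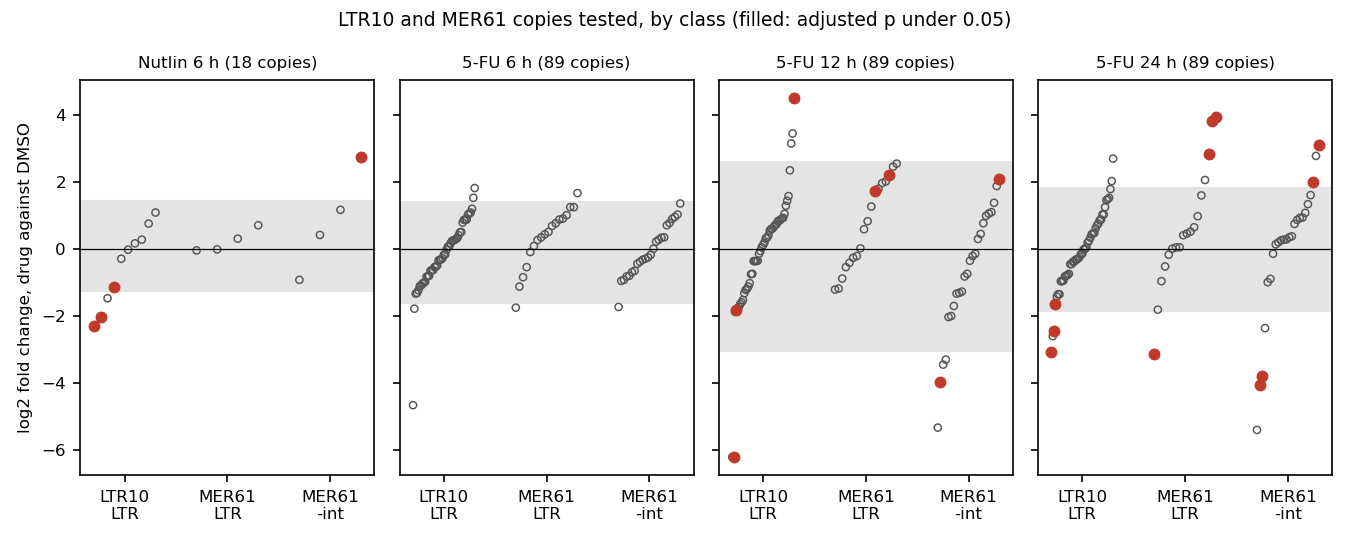
Log2 fold change of every LTR10 and MER61 copy tested, drug against DMSO, in the 4 comparisons, with copies ordered by value within each class and filled points for adjusted p under 0.05. The grey band spans the 5th to the 95th percentile of all repeat copies tested (-1.85 to 1.83 at 24 h), and at 24 h the 5 members that rose are all MER61 copies.

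The member with the most RNA gained was a MER61-int copy on chromosome 5 (hg19 chr5:27472822-27477649), which held 6.17 and 6.16 counts per 1e+06 library counts (CPM) in the Nutlin libraries against 0.97 and 0.83 in their DMSO libraries. The rise was 6.75-fold (log2 fold change 2.76, SE 0.35, adjusted p = 0.000466), and the groups did not overlap. The untreated sample of that table had 2.05 CPM, above both DMSO libraries. In the 5-FU table the copy had 30.6 and 20.7 CPM after 6 h of drug against 8.12 and 11.7 in DMSO. After 12 h it had 16.8 and 24.4 against 14.1 and 9.94, and after 24 h 87.8 and 101 against 18.9 and 28.4.

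Drug libraries thus lay above their own DMSO libraries at all 3 times of 5-FU, and the DMSO libraries lay above the untreated ones (5.26 and 2.39 CPM). At 24 h the group means were 94.2 ± 8.99 and 23.7 ± 6.70 CPM (SD, n = 2). This difference passed the test (1.99 on the log2 scale, SE 0.29, adjusted p = 0.000214), and those at the earlier times did not, at 6 h (1.36, SE 0.31, adjusted p = 0.145) and 12 h (0.77, SE 0.34, adjusted p = 0.151). The 6 h adjusted p was 0.0119 by DESeq2 and 0.00453 with no filter on low counts. The copy lies where the PURPL gene, a long non-coding RNA known as a p53 target, is annotated.

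This copy is the body of a provirus. A MER61C LTR (chr5:27472181-27472594) and a 250-base MER61-int piece (27472595-27472844) precede it, and a MER61C LTR follows it (27477650-27478102). Consensus positions rise with the genome coordinate, from 2 to 232 and then from 343 to 5213, so the provirus runs toward higher coordinates and the second LTR is its 3′ end. The 3′ LTR rose after 24 h of 5-FU from 2.25 and 3.10 CPM to 17.8 and 21.1 CPM, a log2 fold change of 2.85 (SE 0.47, adjusted p = 0.000701). The 5′ LTR had 12.97 and 9.60 CPM against 3.74 and 3.61, which missed the threshold (1.60, SE 0.50, adjusted p = 0.0736).

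Neither LTR had enough counts to be tested under Nutlin. There the 3′ LTR had 10 and 9 counts in drug and 2 and 1 in DMSO libraries, and the 5′ LTR 4 and 4 against 0 and 2. Within 10 kb, 12 other copies were tested in the 5-FU table, and at 24 h all 12 log2 fold changes were above 0, with a median of 2.41 and 4 copies past the test. Besides the 3′ LTR these were an L1PA3 copy (2.99, SE 0.53, adjusted p = 0.00139), an AluSz6 copy (2.48, SE 0.67, adjusted p = 0.0378) and an L2 copy (2.16, SE 0.58, adjusted p = 0.0346). All 3 lie past the 3′ LTR, with gaps of 1037, 8819 and 9142 bases from the internal copy, and on the 5′ side the 5′ LTR was the copy tested. Summed over every listed copy of the stretch, RNA was 11.4 and 10.5 CPM under Nutlin against 1.6 and 1.5 CPM in DMSO.

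**Figure D2:**
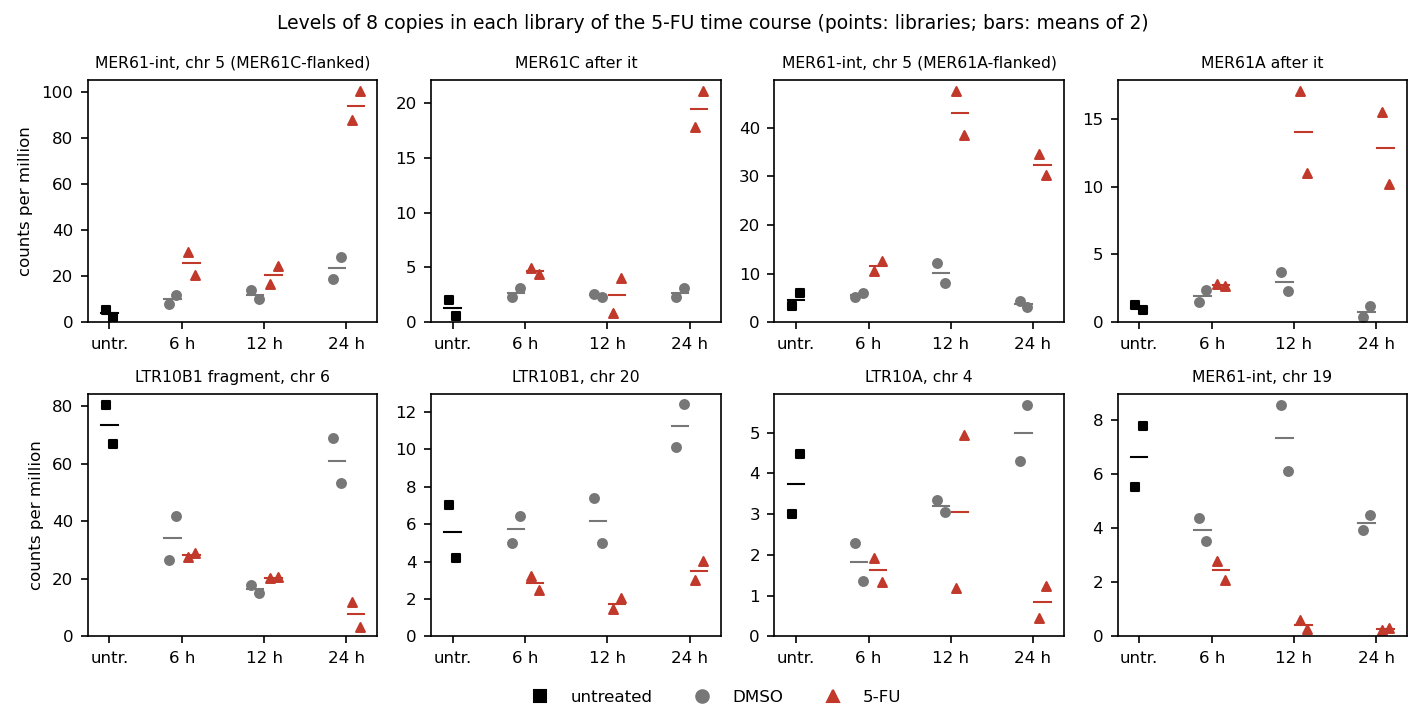
CPM (linear axis from 0) of 8 copies in each of the 14 libraries of the 5-FU table, as squares for untreated, circles for DMSO and triangles for 5-FU, with bars for the mean of 2 libraries. In the upper row the 24 h drug libraries lie above their DMSO libraries for all 4 MER61 copies, and in the lower row they lie below for the LTR10B1, LTR10A and chromosome 19 MER61-int copies.

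A second MER61 provirus on chromosome 5 rose under 5-FU at 12 and 24 h. Its main internal copy (chr5:111000009-111002187) had 3.25 and 5.98 CPM in untreated cells. It had 10.5 and 12.6 CPM after 6 h of drug against 5.20 and 6.05 in DMSO, a difference that did not pass (1.03 on the log2 scale, SE 0.32, adjusted p = 0.433). After 12 h it had 47.6 and 38.6 CPM against 12.2 and 8.03 (2.08, SE 0.31, adjusted p = 0.000196). After 24 h it had 34.5 and 30.2 CPM against 4.31 and 3.10 (3.12, SE 0.32, adjusted p = 3.03e-06). The 24 h DMSO libraries lay below the 12 h DMSO libraries, so the larger fold at 24 h goes with a lower control level.

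MER61A LTRs close both ends, at 110998737-110999068 and 111002487-111002802. Consensus positions of the internal pieces fall with the coordinate (4242 to 5217, then 2014 to 4239, then 1 to 256), so this provirus runs toward lower coordinates and its 5′ LTR is the one at 111002487. The 5′ LTR had 17.1 and 11.0 CPM after 12 h against 3.71 and 2.29 (log2 fold change 2.21, SE 0.48, adjusted p = 0.00565), and 15.5 and 10.2 after 24 h against 0.37 and 1.20 (3.95, SE 0.52, adjusted p = 6.27e-05). Its 12 h call was lost without DMSO replicate 2 (adjusted p = 0.0833) or 5-FU replicate 1 (0.0673). The 3′ LTR had 4.17 and 4.18 CPM after 24 h, or 45 counts, against 0.19 and 0.34, or 3 counts. Its ratio of counts was 15.5, with a 95% counting interval of 4.99 to 78.1, and its adjusted p of 0.008 became 0.119 or 0.077 without either DMSO library. Of the 5 listed copies of the provirus 4 were tested, and the fourth, the internal piece at 110999069-111000000, missed the threshold with 1.61 at 24 h (SE 0.55, adjusted p = 0.113) and 0.99 at 12 h (SE 0.58, adjusted p = 0.29). At 24 h drug and DMSO libraries did not overlap in any of the 4. With 2 libraries per group such separation can arise by chance, and its share over all tested copies was not counted. The 4 copies also share a provirus and are not independent measurements, so this adds no call for the piece that missed the threshold. Against the DMSO libraries of 6 and 24 h, the 12 h values of the main internal copy and the 5′ LTR were 3.23 and 3.47, and without DMSO 24 h replicate 1 or 2 the 24 h value of the 5′ LTR was 3.36 or 4.96.

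Changed copies lay on both sides of this provirus. Past the 5′ LTR, toward higher coordinates, L2b, AluJb, MamRep137 and MamTip3 copies, with gaps of 42 to 2306 bases from it, each rose at both times, with log2 fold changes of 2.04 to 3.44 at 12 h and 2.12 to 3.82 at 24 h. On the other side, 8760 bases from the 3′ LTR, a THE1A-int copy rose at 12 h (2.89, SE 0.83, adjusted p = 0.0311) and was at 1.97 at 24 h (adjusted p = 0.204), and a THE1B-int copy between them was at 0.28 and 3.39 (adjusted p = 0.9 and 0.122). Of the 8 other tested copies within 10 kb of the internal copy, 5 rose at 12 h and 6 at 24 h, and none fell. Under Nutlin no copy of the provirus had enough counts: the internal copy had 12 and 4 counts in drug libraries against 7 and 3 in DMSO. The untreated sample of that table had 13 counts of it. Over the whole stretch, Nutlin libraries held 3.8 and 4.1 CPM (43 and 34 counts) against 2.5 and 1.5 CPM (23 and 14 counts) in DMSO, which was not tested.

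Outside these proviruses, 2 members rose, both at 12 h alone by the test. A MER61B LTR (chr5:179238359-179238651), in the locus of SQSTM1, an autophagy receptor gene, had 19.4 and 25.3 CPM against 7.78 and 5.74 (log2 fold change 1.72, SE 0.35, adjusted p = 0.00321). Levels at 6 h were 11.4 and 17.5 CPM against 6.66 and 8.98, and those at 24 h were 15.3 and 12.9 against 10.3 and 7.57, with adjusted p of 0.562 and 0.294. The groups did not overlap at any of these times. None of its 8 tested neighbours changed at 12 h, 4 of them were above 0, and their median was 0.25. The nearest, a MER61-int piece with a gap of 2 bases, was at -2.0 (SE 1.21, adjusted p = 0.309). The 12 h call of the LTR was lost without DMSO replicate 2, and its log2 values ran from 1.38 to 1.97 over the alternatives.

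An LTR10C copy (chr16:89458134-89458739), in the locus of the chromatin regulator gene ANKRD11, had 39 and 24 counts after 12 h against 0 and 2. The ratio was 24.4 with a 95% counting interval of 6.49 to 206 (adjusted p = 0.0125). At 24 h it had 11.8 and 9.29 CPM in drug libraries and 0.19 and 4.82 in DMSO (adjusted p = 0.12), so the DMSO libraries differed widely between themselves. The 12 h adjusted p was 0.136 without DMSO replicate 1 and 0.0721 without 5-FU replicate 1. The size of the 12 h change was uncertain: the fitted log2 value was 4.51, and it was 2.32 against the DMSO libraries of 6 and 24 h, 3.56 without DMSO replicate 1 and 8.38 without DMSO replicate 2. Under Nutlin the copy had 4 and 5 counts against 1 and 1 and was not tested. It was the 1 LTR10 LTR that rose in any comparison.

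The member with the most counts was no intact LTR but a 38-base LTR10B1 fragment (chr6:27841261-27841298), which covers positions 210 to 257 of its consensus, 8.8% of it. It lies in the large histone gene cluster of chromosome 6, whose genes are known to be transcribed mainly in S phase. It held 13.8 and 16.8 CPM under Nutlin against 32.4 and 34.1 in DMSO (log2 fold change -1.13, SE 0.14, adjusted p = 0.000355). After 24 h of 5-FU it held 12.1 and 3.25 CPM against 69.1 and 53.2, a fall of 3.06 on the log2 scale (SE 0.37, adjusted p = 2.44e-05). The 24 h drug libraries differed between themselves, and the value was -4.22 without 5-FU replicate 1 and -2.34 without replicate 2. Its earlier DMSO libraries held 26.4 and 41.8 CPM (6 h) and 17.8 and 14.9 CPM (12 h), and untreated cells 80.3 and 67.0 CPM.

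The DMSO libraries of this fragment thus differed between times by more than within a time. At 6 and 12 h the drug libraries had 27.6 and 28.9 CPM and 20.3 and 20.6 CPM, and neither difference from DMSO passed the test (-0.27 and 0.32, adjusted p = 0.891 and 0.625). With library size alone the 12 h value was -0.01. No copy within 10 kb of the fragment was tested.

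The LTR10B1 LTR at chr20:47903608-47904051 fell in both drug experiments. It is 444 bases long and aligns from position 1 to 547, the ends of its consensus, so some inner positions are missing. This LTR had 0.53 and 0.60 CPM under Nutlin against 2.27 and 2.4 (log2 fold change -2.03, SE 0.49, adjusted p = 0.0222). Under 5-FU it had 1.47 and 2.03 CPM at 12 h against 7.41 and 4.97 (-1.81, SE 0.50, adjusted p = 0.0255), and 3.01 and 4.03 at 24 h against 10.1 and 12.4 (-1.65, SE 0.39, adjusted p = 0.017). At 6 h it had 3.21 and 2.47 against 5.00 and 6.44, with no overlap but an adjusted p of 0.627.

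The calls of this LTR were lost under several alternatives. The Nutlin adjusted p became 0.0593 without Nutlin replicate 1, 0.132 by DESeq2 and 0.141 with no filter on low counts. With no filter it was 0.954 at 12 h and 0.385 at 24 h, and with the 4 libraries of a time alone it was 0.0893 and 0.0575. At 12 h it was 0.2 without DMSO replicate 1, 0.144 without 5-FU replicate 1 and 0.0854 without 5-FU replicate 2. At 24 h it was 0.0634 and 0.144 without DMSO replicate 1 or 2 and 0.0882 without 5-FU replicate 1. The whole provirus around it pointed the same way. HERVI-int and HERVIP10F-int pieces lie between this LTR and a second LTR10B1 (chr20:47897648-47898113), in the locus of ZFAS1, a long non-coding RNA that hosts small nucleolar RNAs.

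All 11 other tested copies within 10 kb had log2 fold changes below 0 at 12 h and at 24 h, with 4 past the test each time, and 3 of 8 passed under Nutlin. The largest HERVI-int piece (chr20:47898908-47900663) fell from 32.6 to 13.7 CPM at 12 h (-1.24, SE 0.25, adjusted p = 0.00298), as means of 2 libraries. At 24 h the means were 50.2 CPM in DMSO and 22.9 in drug libraries (-1.12, SE 0.22, adjusted p = 0.00427). The second LTR missed the threshold with -1.47 under Nutlin (adjusted p = 0.077), -1.19 at 12 h (0.0555) and -0.94 at 24 h (0.118).

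An LTR10A copy (chr4:1740261-1740753), in the locus of TACC3, which encodes a mitotic spindle protein, had 0.53 and 0.36 CPM under Nutlin against 2.70 and 1.88 (log2 fold change -2.30, SE 0.55, adjusted p = 0.0218). After 24 h of 5-FU it had 0.46 and 1.24 CPM against 4.31 and 5.68 (-2.44, SE 0.64, adjusted p = 0.0311), while at 6 and 12 h the values were -0.17 and -0.06. The Nutlin call was lost without DMSO replicate 1 (adjusted p = 0.106), by DESeq2 (0.123) and with no filter on low counts (0.114). The 24 h call was lost without DMSO replicate 1 (0.0858), DMSO replicate 2 (0.177) or 5-FU replicate 1 (0.162), with no filter (0.247) and with the 4 libraries alone (0.0581), and its value was -3.35 without 5-FU replicate 2. A neighbouring LTR13 copy fell with it under Nutlin (-1.80, SE 0.27, adjusted p = 0.00146) and at 24 h (-3.20, SE 0.41, adjusted p = 4.64e-05). All 9 tested neighbours were below 0 at 24 h, with a median of -2.95, and 3 fell.

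A MER61-int piece on chromosome 19 (chr19:23286028-23286830), with no MER61 LTR beside it, went from 8.53 and 6.12 CPM in DMSO to 0.59 and 0.29 after 12 h of 5-FU. After 24 h it went from 3.93 and 4.47 CPM to 0.23 and 0.31. Drug libraries held 3 counts in all at each time, so the ratios of counts were 16.8 (95% counting interval 5.33 to 84.8, adjusted p = 0.000443) and 15.1 (4.87 to 76.0, adjusted p = 0.000803). Under Nutlin it had 1.23 and 0.60 CPM against 1.94 and 1.67 (-0.92, SE 0.50, adjusted p = 0.299). Copies of the BSR/Beta satellite, with Alu copies among them, were the tested copies on its lower-coordinate side, and MER61-int, L1, AluSg and MER57A-int copies those on the other side. None of its 18 tested neighbours had a value above 0 at 12 or 24 h. By the test 1 of them fell at 12 h and 10 at 24 h, and 5 of 10 tested in the Nutlin table fell there. Against the DMSO libraries of 6 and 24 h the fitted 12 h value was -3.13, in place of -3.98.

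The other copies that fell did so in 1 comparison. A MER61-int copy of 4816 bases (chr3:44810140-44814955), in the locus of the mitotic kinesin gene KIF15, had 0 and 3 counts after 24 h of 5-FU against 22 and 33. The ratio was 17.7, with a counting interval of 5.75 to 88.5 (adjusted p = 0.0079). That became 0.0831 without DMSO replicate 2 and 0.053 without 5-FU replicate 1, and the fitted value of -4.05 became -3.32 without 5-FU replicate 1 and -7.38 without replicate 2. Under Nutlin it had 0 and 3 counts against 6 and 11. A MER61A LTR (chr18:37380066-37380399) had 1 and 2 counts at 24 h against 10 and 20, a ratio of 9.66 (3.0 to 49.5, adjusted p = 0.0175), and the adjusted p was 0.176 without DMSO replicate 2, 0.0766 without 5-FU replicate 1, 0.0826 without 5-FU replicate 2, 0.293 with no filter and 0.099 with the 4 libraries alone. An LTR10E copy on chromosome 8 had 0 counts in both 12 h drug libraries against 6 and 5 in DMSO. Against a floor of 3 counts per library that is at least 2.36-fold lower (adjusted p = 0.0421), and the call was lost without any of the 4 libraries (adjusted p from 0.104 to 0.159), with no filter (0.29) and with the 4 libraries alone (0.0932).

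Neighbours of changed members were counted within 10 kb. Of the 11 copies changed at 24 h, 8 (72.7%) had another tested copy within 10 kb that changed the same way, 2 had no tested copy in that distance, and over all changed copies the share was 61.7%. At 12 h the count was 5 of 7 (71.4%, against 53.4% over all), and under Nutlin 2 of 4 (50%, against 57.9%), where the other 2 had no tested neighbour. Several of these members are neighbours of each other in the chromosome 5 proviruses, but in each case at least 1 such neighbour was a repeat outside the LTR10 and MER61 names. Of the members that did not change, 15.4% of 78 had a neighbour changed in either direction at 24 h, 23.2% of 82 at 12 h and 28.6% of 14 under Nutlin, where all copies not changed gave 11.1%, 28.7% and 14.4%. Changed and unchanged members were not tested against each other.

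Direction was also compared with the surroundings, over changed and unchanged members together. The sign of a member's log2 fold change matched that of its neighbours' median in 75.0% of the 72 members with a tested neighbour at 24 h, 72.2% at 12 h, 63.9% at 6 h, and in 83.3% of 12 under Nutlin. Over all copies the shares were 68.8%, 69.9%, 62.6% and 72.7%. Reads of 1 transcript that crosses several copies count in each, so neighbours are not independent measurements. Of the changed members, the LTR10B1 fragment, the LTR10C copy on chromosome 16 and the MER61-int copy on chromosome 3 had no tested neighbour to compare.

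**Figure D3:**
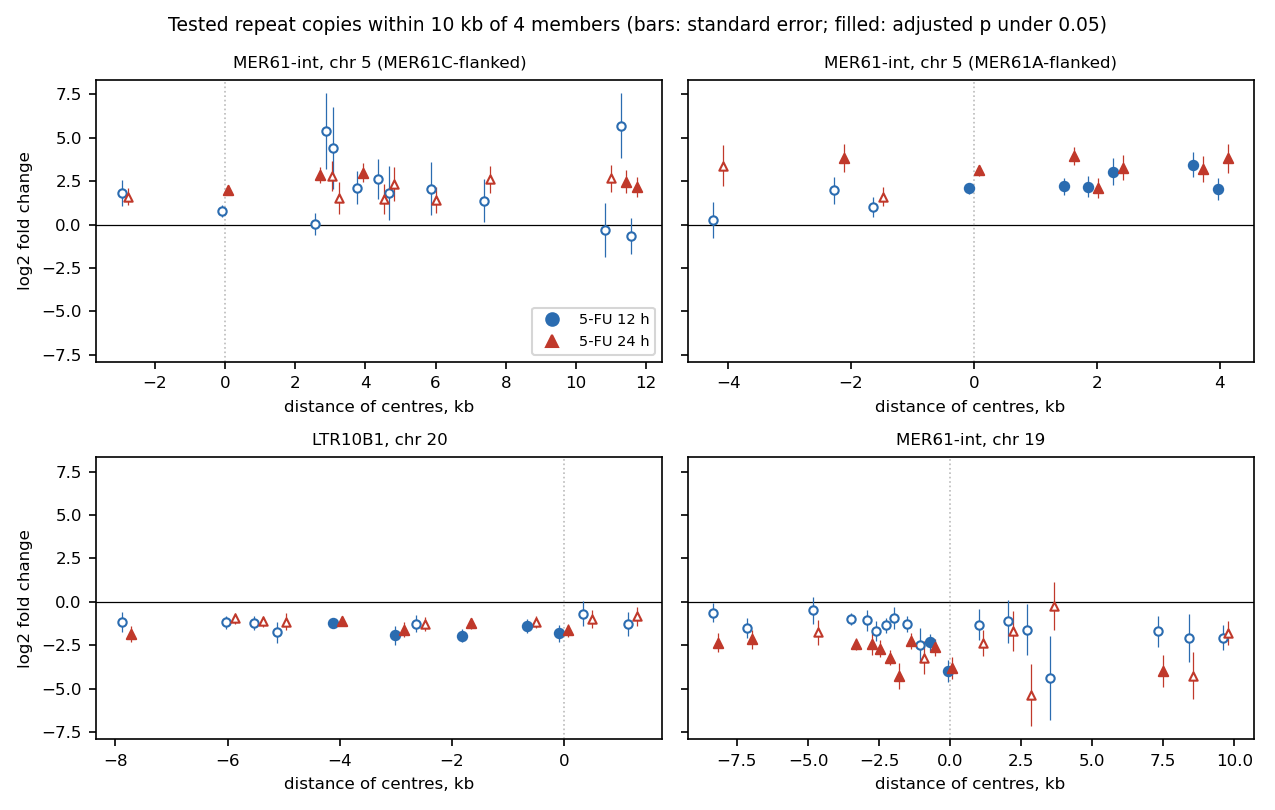
Log2 fold change (with standard error) of every tested repeat copy within 10 kb of 4 members, against the distance between the centres of the neighbour and the member at 0, for 5-FU at 12 h (circles) and 24 h (triangles), filled where adjusted p is under 0.05. Copies around both chromosome 5 proviruses lie above 0 at 24 h, all 12 and all 8 neighbours, and those around the chromosome 20 and chromosome 19 copies lie below 0.

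By position in a provirus the counts at 24 h were as follows, where 4.23% of all copies tested changed. Of the MER61 LTRs, 4 of the 7 tested with MER61-int within 500 bases changed, against 0 of 11 without. For MER61-int with and without an LTR the counts were 3 of 17 and 1 of 7, and for LTR10 LTRs with and without a HERVI or HERVIP10 internal part 1 of 10 and 2 of 37. These are counts of few copies that are not independent: 5 of the changed copies share the 2 proviruses of chromosome 5, among them 3 of the 4 MER61 LTRs.

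All 18 copies tested in the Nutlin table were also tested in the 5-FU table, and the experiments have separate DMSO controls. Of the 1951 copies of any name changed by Nutlin and tested in both tables, 20.3% changed the same way at 24 h of 5-FU. All 4 members changed by Nutlin did: the MER61-int copy at chr5:27472822 upward, and the LTR10A and both LTR10B1 copies downward. By DESeq2 or with no filter on low counts, 2 of the 4 Nutlin calls were left, those of the MER61-int copy and the chromosome 6 fragment. At 12 h 1 of these 4 had changed, the LTR10B1 LTR on chromosome 20 (17.9% over all), and at 6 h, the time that matches the Nutlin treatment, none had (1.9% over all). The sign agreed between Nutlin and 5-FU for 14 of 18 copies at 6 h, 13 at 12 h and 14 at 24 h, beside 52.3%, 51.1% and 55.2% of all copies tested in both. Other copies passed the 5-FU test and not the Nutlin test, such as the chromosome 19 MER61-int piece and the MER61B LTR (0.31 under Nutlin, SE 0.34, adjusted p = 0.648). Whether such copies differ between the drugs was not tested.

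The 5-FU effect at 24 h differed from that at 6 h in 3 of 89 members, by a test of the difference itself, where 0.385% of all copies passed (0.0865% upward and 0.299% downward). The difference was 2.09 (SE 0.45, adjusted p = 0.0416) for the MER61-int copy at chr5:111000009 and 3.44 (SE 0.75, adjusted p = 0.0427) for the MER61A LTR at chr5:111002487. For the LTR10B1 fragment on chromosome 6 it was -2.79 (SE 0.49, adjusted p = 0.00799). With the 8 libraries of both times alone no member passed (adjusted p = 0.0922, 0.111 and 0.0704 in the order above). No member passed without DMSO 6 h replicate 1 or without DMSO 24 h replicate 1, and 1 passed without DMSO 6 h replicate 2 or without either 5-FU 6 h library. For the MER61-int copy at chr5:27472822 the difference between 24 and 6 h was 0.63 (SE 0.43, adjusted p = 0.756).

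The other abundant members did not pass the test in any comparison. An LTR10C copy on chromosome 12 (chr12:123744556-123745141) ranked among the 5 with the most counts in both tables, with 8.20 to 18.3 CPM over the 5-FU libraries and log2 fold changes of 0.17 under Nutlin (SE 0.30) and 0.26, 0.55 and 0.19 under 5-FU (SE 0.35, 0.38 and 0.35). A MER61E copy on chromosome 11 (chr11:17400235-17400805) had 7.40 and 8.09 CPM under Nutlin against 4.75 and 4.69, with no overlap and an adjusted p of 0.0679 (0.71, SE 0.22). Under 5-FU its values were 0.27, -0.54 and 0.01. The most abundant LTR10A copy, at chr22:36883200-36883685, had 5.82 and 7.24 CPM against 6.70 and 9.17 (-0.29, SE 0.24, adjusted p = 0.503) under Nutlin. At 24 h of 5-FU it had 3.71 and 5.89 CPM against 12.4 and 6.71, with no overlap (-0.96, SE 0.38, adjusted p = 0.184), and at 6 and 12 h it was at -0.16 and 0.66. A second LTR10C copy (chr16:20816781-20817358) was at 0.28 under Nutlin (SE 0.26) and at 0.88, 0.93 and -0.77 at 6, 12 and 24 h of 5-FU (SE 0.36, 0.39 and 0.36, adjusted p = 0.616, 0.136 and 0.289). Its drug libraries lay above DMSO at 6 and 12 h and below at 24 h, and the difference between 24 and 6 h was -1.65 (SE 0.51, adjusted p = 0.259).

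Summed by name, counts of all copies were tested for 16 names. Under Nutlin 3 of 16 changed, beside 12.7% of all names (9.63% higher and 3.11% lower): MER61-int rose from 23.0 and 21.5 to 35.1 and 32.6 CPM (log2 fold change 0.61, SE 0.13, adjusted p = 0.000857), MER61E rose (0.74, SE 0.21, adjusted p = 0.0119), and LTR10B1 fell from 41.3 and 41.2 to 19.3 and 20.8 CPM (-1.04, SE 0.13, adjusted p = 1.18e-08). The MER61E call was lost without DMSO replicate 2 or either Nutlin library (adjusted p = 0.174 each) and the MER61-int call without Nutlin replicate 1 (0.121) or 2 (0.0562). After 6 h of 5-FU no name changed (0% of all names by edgeR and 0 of 16 with an unadjusted p under 0.05). After 24 h, 4 of 16 changed, beside 12.1% of all names (10.9% higher and 1.21% lower): MER61-int (1.08, SE 0.13, adjusted p = 0.000204), MER61A (0.75, SE 0.19, adjusted p = 0.0205) and MER61C (1.26, SE 0.22, adjusted p = 0.00206) rose and LTR10B1 fell (-1.59, SE 0.16, adjusted p = 7.38e-05). The MER61A call was lost without DMSO replicate 1 (0.209) or 5-FU replicate 2 (0.073).

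At 12 h, LTR10B (1.40), LTR10C (0.66), LTR10G (1.36), MER61-int (0.45) and MER61B (0.69) rose, 5 of 16 names, but 33.8% of all names changed at that time (28.5% higher and 5.29% lower). Over the 16 names the log2 fold changes ran from -1.04 to 0.84 under Nutlin and, for 5-FU, from -0.23 to 0.43 at 6 h, from -0.17 to 1.40 at 12 h and from -1.59 to 1.26 at 24 h. Without TMM factors the 12 h median of the 16 names moved from 0.28 to -0.29, 2 fell and none rose. Leaving out single libraries left 1 to 3 of the 16 changed: 1 without DMSO replicate 2, 2 without 5-FU replicate 2 and 3 without DMSO replicate 1 or 5-FU replicate 1.

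Single copies held unequal parts of these sums. Of all LTR10B1 counts the chromosome 6 fragment held 78.5% (Nutlin table) and 57.0% (5-FU table). The chromosome 11 copy held 73.2% of MER61E, the chromosome 5 copy at 27472822 22.3% of MER61-int in the 5-FU table, and its 3′ LTR 22.4% of MER61C. For the other changed names the share was 51.8% (LTR10B), 38.2% (MER61B), 15% (MER61A), 14.5% (LTR10G) and 13.4% (LTR10C). With the most abundant copy of each name left out, no name passed under Nutlin, where the values were 0.73 for MER61E (0.74 with it), -0.81 for LTR10B1 (-1.04) and 0.37 for MER61-int (0.61), with adjusted p of 0.478, 0.173 and 0.0966. At 24 h MER61-int alone passed (0.64, adjusted p = 0.0206). Its sum still held the copy at chr5:111000009, with mean CPM of 32.4 in drug and 3.7 in DMSO libraries. At the same time LTR10B1 was at -0.62 (0.0995), MER61C at 0.78 (0.122) and MER61A at 0.33 (0.559). At 12 h LTR10C stayed past the test (0.64, adjusted p = 0.037) and LTR10B1, unchanged with its fragment (-0.17, adjusted p = 0.494), passed as lower without it (-0.90, adjusted p = 0.0137). That LTR10B1 sum still held both LTRs of the chromosome 20 provirus, with mean CPM of 1.75 against 6.19 and 4.54 against 10.3 in DMSO. Names were not tested with further copies left out.

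**Figure D4:**
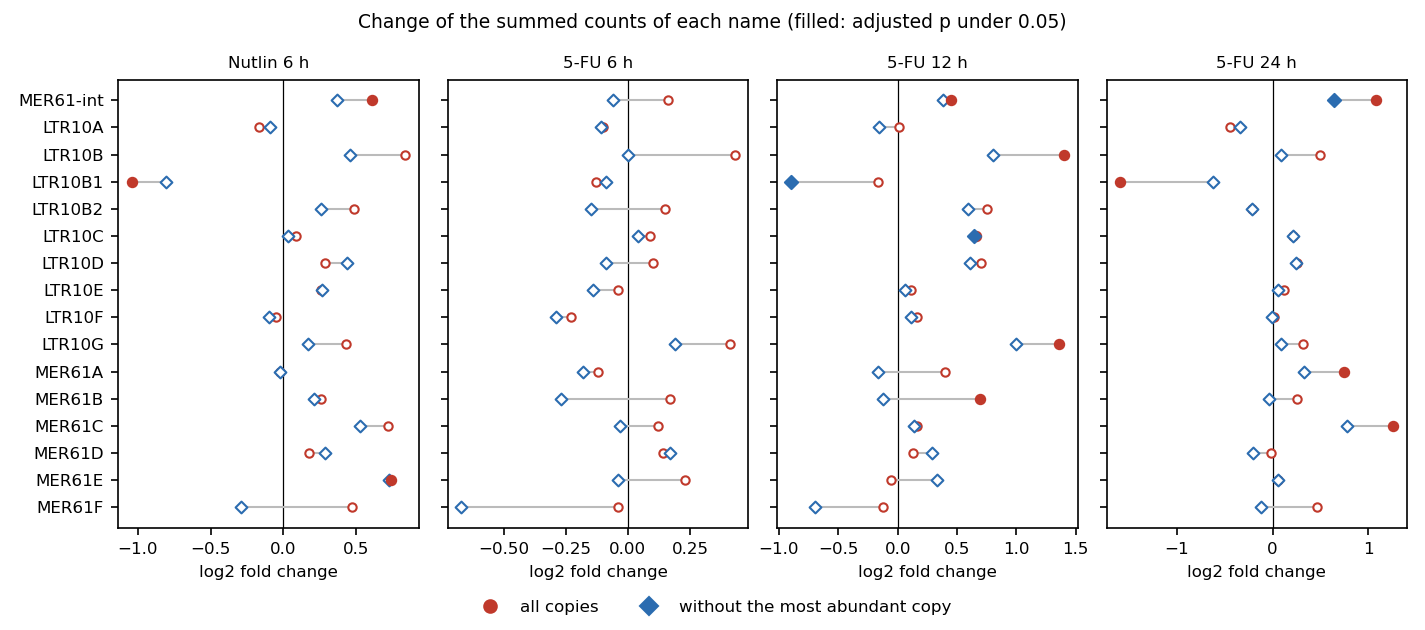
Log2 fold change of the summed counts of each of the 16 names in the 4 comparisons, over all copies (circles) and without the most abundant copy of the name (diamonds), filled where adjusted p is under 0.05, with axes scaled per panel. LTR10B1 moves from -1.59 to -0.62 at 24 h when the chromosome 6 fragment is left out, and MER61-int from 1.08 to 0.64.

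Other LTR families gave the scale for these counts. At 24 h, where 11 of 89 LTR10 and MER61 copies (12.4%) changed, the count was 11 of 191 for LTR12 (5.76%), 0 of 90 for MER41 LTRs (9 at an unadjusted p under 0.05), 4 of 65 for HERVI and HERVIP10 internal parts (6.15%) and 2 of 43 for the LTR101 to LTR109 names (4.65%). Under Nutlin it was 4 of 18 for the members (22.2%), 5 of 58 for LTR12 (8.62%), 4 of 22 for MER41 LTRs (18.2%), 9 of 23 for HERVI and HERVIP10 internal parts (39.1%) and 1 of 14 for the LTR101 to LTR109 names (7.14%). At 12 h the members were at 7.87%, beside 12.6% for LTR12, 16.9% for HERVI and HERVIP10 internal parts, 11.6% for the LTR101 to LTR109 names and 3.33% for MER41 LTRs. MER41 internal parts had 9 of 33 changed at 12 h, all downward, and 0 of 33 at 24 h and 0 of 7 under Nutlin by edgeR, with 2 in each at an unadjusted p under 0.05. Whether these shares differ was not tested, since copies of a family share proviruses and transcripts.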

How the data were processed

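The authors deposited 2 tables of raw counts per repeat copy, with unit counts and no normalization. Per the submitters' processing notes, the tools were Trimmomatic 0.32, cutadapt 1.10, Bowtie2, edgeR and DESeq2 and the build hg19, with no role or order. How reads that match several copies were counted is not given in the sources used here, so counts of near-identical copies, LTRs of 1 provirus among them, are uncertain. Libraries came from a stranded total RNA kit, per the labels' protocols. Row names give consensus and genome positions.

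From these counts, edgeR 4.0.16 (R 4.3.3) fitted quasi-likelihood models with a mean per group, 1 fit per table, after filterByExpr (in the Nutlin table on drug and DMSO libraries) and TMM factors. This left 21328 and 63602 copies, and 1028 and 1078 names in a separate fit with TMM factors from all copies. Each drug group was tested against its own DMSO group, with Benjamini-Hochberg adjustment over all copies or names tested. CPM are counts per 1e+06 counts of the TMM-scaled library total, structural RNA included. Levels are not comparable between tables, where structural RNA took unlike parts of the totals, and CPM are not divided by length. SE is the log2 fold change over the root of F. Counting intervals are exact 95% intervals for a ratio of counts, and these and the floor of 3 counts cover counting error only. Neighbours are copies whose edges lie within 10 kb. Code was tested on simulated data.

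Members, lists and tests were chosen with earlier results of these data known. Named copies were every member changed in a drug comparison where 10 or fewer changed, otherwise the 6 risen and 4 fallen with the smallest p and no overlap (the remaining changed copies at 24 h are named because few were left), plus the 5 with the most counts in each table. Alternatives covered scaling, filters, DESeq2 1.42.0, single libraries left out, the samples in the fit, the threshold, the controls at 12 h, a replicate block and, added after seeing the files, the LTR101 to LTR109 names as members. No hg19 genome or annotation was used here, so no sequence is shown.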

Additional observations from a re-analysis of the deposited data

Results flagged for a closer look

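The 5-FU effect differed between 24 and 6 h for 3 copies by a test of the difference (log2 scale, edgeR): the LTR10B1 fragment on chromosome 6 by -2.79 (adjusted p = 0.00799), the MER61-int copy at chr5:111000009 by 2.09 (0.0416) and the MER61A LTR at chr5:111002487 by 3.44 (0.0427). Over the alternatives the adjusted p ran from 1.74e-08 to 0.0716, from 0.00183 to 0.253 and from 0.00684 to 0.277. The direction held in all of them for each copy.

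The LTR10B1 fragment also had values of opposite sign at 12 h (0.32) and at 24 h (-3.06), with both drug libraries above both DMSO libraries at 12 h and below both at 24 h. This pair of times was not tested against each other. The DMSO libraries of the fragment were at 17.8 and 14.9 CPM at 12 h and at 69.1 and 53.2 CPM at 24 h, and with library size alone the 12 h value was -0.01.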

How the results depend on the processing

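Of 25 changes of single copies, 10 passed under every alternative run for them, and of 12 changes of names none did. None of the 25 reversed. The copies that passed throughout were the chromosome 6 LTR10B1 fragment and the MER61-int copy at chr5:27472822 (Nutlin and 24 h), the MER61-int copies at chr5:111000009 and on chromosome 19 (12 and 24 h), and the MER61A LTR at chr5:111002487 and the MER61C LTR at chr5:27477650 (24 h). Copies changed under Nutlin numbered 2 in place of 4 at a threshold of 0.01, with no filter on low counts and with DESeq2, and 3 to 6 with single libraries left out. At 6 h the count was 1 in place of 0 with no filter and with DESeq2. At 12 h it was 4 in place of 7 at 0.01, 12 of 132 with the LTR101 to LTR109 names, 15 (8 higher, 7 lower) against the DMSO libraries of 6 and 24 h, and 4 to 5 with single libraries left out. At 24 h single libraries left out gave 7 to 10 in place of 11. For 24 h minus 6 h the count was 1 in place of 3 at 0.01 and with no filter, 0 with the 8 libraries alone, and 0 to 3 with single libraries left out. Names changed under Nutlin numbered 0 in place of 3 without the most abundant copies and 1 to 3 with single libraries left out. At 12 h they numbered 2 in place of 5 with library size alone, 3 with DESeq2, 2 without the most abundant copies and 1 to 3 with single libraries left out. At 24 h they numbered 1 in place of 4 without the most abundant copies and 1 with the 4 libraries alone, and 3 to 4 with single libraries left out. At 12 h 3 names turned to the opposite sign: LTR10C (-0.05 against the DMSO libraries of 6 and 24 h), MER61-int (-0.12 with library size alone) and MER61B (-0.12 without its most abundant copy). Within 5 kb, 1 in place of 2 Nutlin copies had a neighbour changed the same way. The cause of these differences was not tested, beyond the fewer counts or samples that some settings leave by construction. A lone sample left in a group is assumed to vary like the other groups.

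Replicate numbers recur across groups, but no label says what they share. Deviations of same-numbered libraries correlated at -0.003 (Nutlin), -0.003, -0.016 and 0.139 (6, 12 and 24 h) across copies, over 2 pairs each. With the replicate number as a block, copies changed numbered 4, 0, 8 and 11 and names 3, 0, 5 and 4, and 24 h minus 6 h gave 1 in place of 3.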
